A study of Mus musculus with 15 samples.

Results

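Chemokines and their receptors were read by 49 genes on the arrays, 32 ligands and 17 receptors, each with 1 probe, out of 16132 features in all. They were taken by name, with earlier results of these data known. Ligands were all probes with a single gene symbol of the Ccl, Cxcl, Xcl or Cx3cl series, together with Pf4 and Ppbp. Receptors were those of the Ccr, Cxcr, Xcr or Cx3cr series. The rule left out 1 gene that matched the pattern. Of the 49, 43 had a value on at least 3 arrays of every group and were tested (28 ligands and 15 receptors), and 24 had a value on every array. The other 6 (Ccl8, Ccl20, Ccl24, Pf4, Ccr7 and Cx3cr1) were read too rarely and are in none of the counts over tested members.

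The samples were total RNA from alveolar macrophages, the phagocytes that live in the airspaces of the lung, of 3 groups of mice with 5 arrays each. Wild type mice (b6+/+Dox) were set beside mice without the integrin subunit beta6 (b6-/-Dox, here beta6 null) and beside beta6-deficient mice reconstituted with TGFb1 (b6-/-TGFb+/+Dox). Doxycycline, an antibiotic that also switches inducible transgenes, had been given to all 3 groups. The labels name neither the promoter behind the TGFb1 nor the strain, age or number of animals, and wild type mice with TGFb1 were not among the samples. Each array set 1 sample against the same macrophage reference RNA in the other channel, and the value of a gene is a log ratio, centred here on the median of its array. Neither the logarithm's base nor which channel is on top is stated in the sources used here. Base 2 and sample over reference were assumed, the likely reading, and an inverted ratio would turn every sign below. Nothing in the labels says whether the arrays of a group come from different animals, so a p-value here weighs a difference against a spread that may be partly technical.

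Chemokines are small secreted proteins that draw leukocytes along a gradient, and they are grouped as CC, CXC, XC or CX3C by the spacing of their first cysteines. Their receptors sit in the membrane of the responding cell, couple to inhibitory G proteins, and mostly bind several ligands, as most ligands bind several receptors. Alveolar macrophages are a source of CC ligands that call in monocytes and T cells and of CXC ligands that call in neutrophils, while the integrin alphavbeta6 of the lung epithelium releases active TGFb, a cytokine that restrains these macrophages.

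The arrays differed in quality. They held 11615 to 16483 values each, with an SD over probes of 0.841 to 2.01, and their number limits the precision. The spread was widest on wild type replicate 2 and on beta6 null replicate 1, and the titles number TGFb1 replicate 5 and beta6 null replicate 4 apart from the rest. Among the 24 members read on every array, wild type replicate 2 was the lowest of its group for 10 and the highest for 8, and TGFb1 replicate 5 was the lowest of its group for 12. In bulk RNA such as this, fewer cells of a type and less RNA per cell cannot be told apart.

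**Figure D1:**
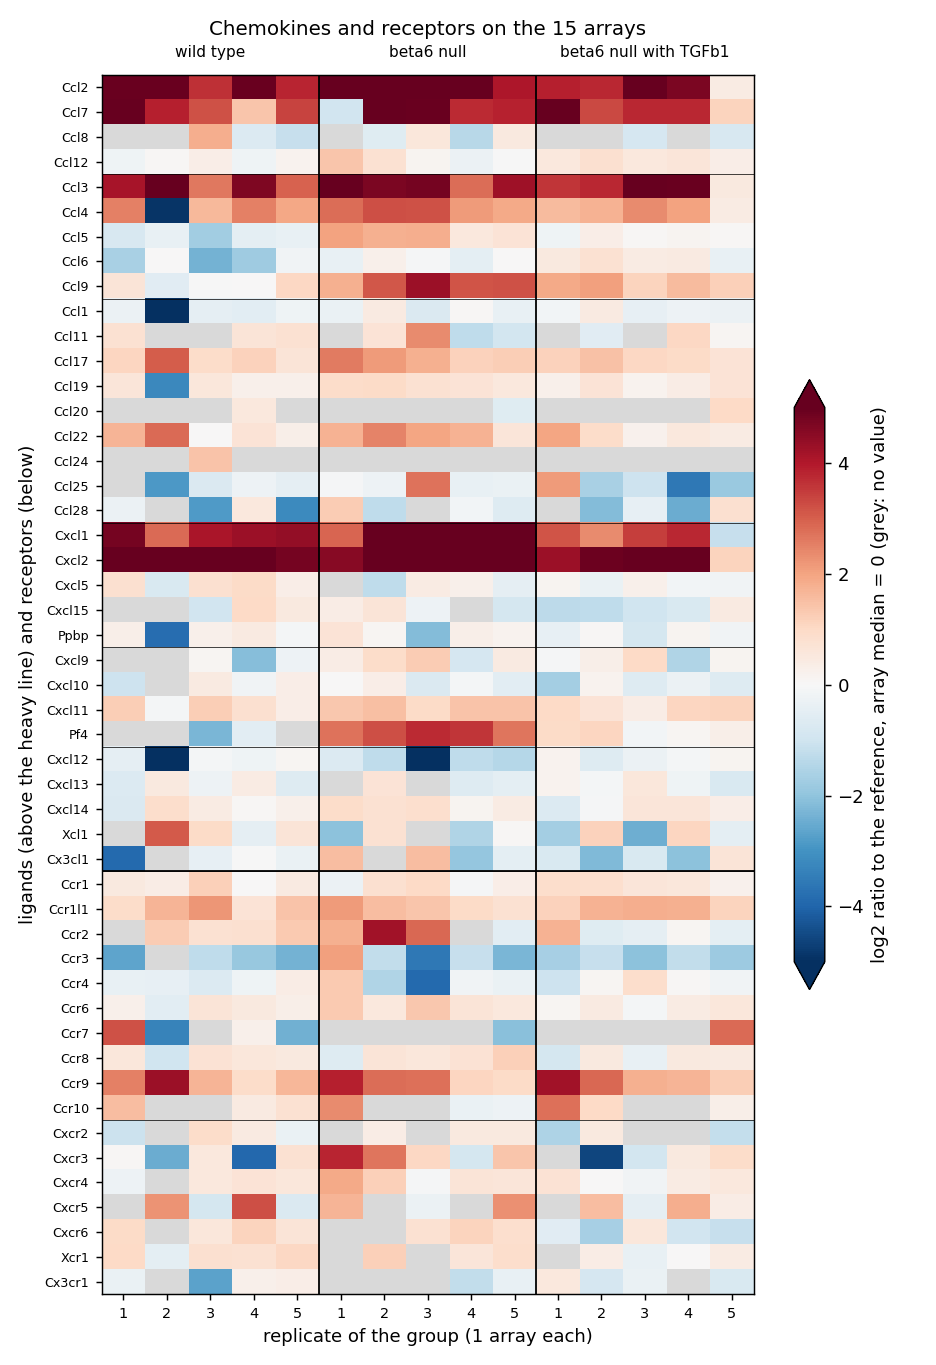
Log2 ratio to the reference of all 49 members (rows, with ligands above the heavy line and receptors below, and thin lines between families) on the 15 arrays (columns, 5 for each group), with each array's median set to 0. Red is higher and blue lower than the array's median, the colours end at 5 and -5, and grey marks a missing value. Ccl9, Ccl5 and Pf4 are redder in beta6 null than in either other group.

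Both members called in any comparison were inflammatory CC ligands. Ccl9, a mouse ligand of CCR1 that draws myeloid and dendritic cells, rose 7.37-fold in beta6 null over wild type, and Ccl5 (RANTES), which draws T cells and monocytes, rose 4.33-fold. Their genes lie side by side: Ccl5, Ccl9, Ccl6, Ccl3 and Ccl4 follow one another in 1 run of 5 on chromosome 11.

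RefSeq promoter windows (build GRCm38.p6, 250 bases before to 50 after the start of transcription) were found for 38 of the 49 members, 24 ligands and 14 receptors. Printed here are those of Ccl9, which differed most among the tested ligands, of its neighbour Ccl6, and of Pf4, on the strand of the gene and 5′ to 3′. They lie at chr11:83578587-83578886 (minus strand), chr11:83593038-83593337 (minus strand) and chr5:90772185-90772484 (plus strand). Capitals mark the motifs found on either strand among those searched: the NF-kB site, the interferon response motif (GAAA, 2 free bases, GAAA), the AP-1 site TGANTCA, the PU.1 site GAGGAAGT, the GATA site AGATAA, the TATA box TATAAA and the SMAD palindrome GTCTAGAC.
Ccl9: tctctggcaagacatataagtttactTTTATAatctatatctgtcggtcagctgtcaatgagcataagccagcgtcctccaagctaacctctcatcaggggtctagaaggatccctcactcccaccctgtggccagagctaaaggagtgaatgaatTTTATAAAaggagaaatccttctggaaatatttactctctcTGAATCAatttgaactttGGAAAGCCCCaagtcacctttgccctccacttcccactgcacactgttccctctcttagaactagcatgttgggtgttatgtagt
Pf4: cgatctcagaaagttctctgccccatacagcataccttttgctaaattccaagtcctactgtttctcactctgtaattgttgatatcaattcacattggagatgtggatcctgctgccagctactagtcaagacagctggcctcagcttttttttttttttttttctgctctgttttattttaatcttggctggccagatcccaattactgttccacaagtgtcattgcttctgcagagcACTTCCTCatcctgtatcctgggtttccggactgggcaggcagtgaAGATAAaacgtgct
Ccl6: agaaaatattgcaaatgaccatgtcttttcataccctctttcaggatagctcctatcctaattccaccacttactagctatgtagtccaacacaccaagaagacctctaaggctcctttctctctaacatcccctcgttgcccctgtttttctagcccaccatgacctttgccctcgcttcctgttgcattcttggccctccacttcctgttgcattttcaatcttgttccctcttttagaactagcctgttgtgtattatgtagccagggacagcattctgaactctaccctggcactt
The Ccl9 window held the AP-1 match TGAATCA 53 bases before the start, the NF-kB match GGAAAGCCCC 35 bases before it on the other strand, and 3 TATA matches, of which a pair overlap on opposite strands. In the Pf4 window lay the PU.1 match ACTTCCTC on the other strand 10 bases before the start and the GATA match AGATAA 36 bases after it. None of the motifs was found in the Ccl6 window, whose best local alignment with that of Ccl9 had 58 identical bases in 74 columns (78.4%). An NF-kB match stood in 5 of the 25 ligand windows and in 4.51% of all 32851 windows. For the TATA box these were 9 of 25 and 13.6%, for AP-1 5 and 7.81%, for GATA 4 and 11.2%, for the interferon motif 3 and 3.44%, for PU.1 1 and 3.2%, and for SMAD 0 and 0.213%. These matches describe letters in a window and show no binding.

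On the wild type arrays the log2 ratio of Ccl9 was 0.64, -0.58, -0.01, 0.01 and 1.04. It was 1.77, 3.11, 4.29, 3.16 and 3.19 on the beta6 null arrays, and 1.90, 2.07, 1.12, 1.60 and 1.20 on those with TGFb1. Every beta6 null array and every TGFb1 array thus lay above every wild type array, while beta6 null and TGFb1 arrays overlapped through beta6 null replicate 1. The means were 0.22 ± 0.63 (SD, n = 5), 3.1 ± 0.90 and 1.58 ± 0.42. Ccl9 rose by 2.88 in beta6 null (SE 0.43, limma adjusted p = 0.00266). Beside beta6 null the TGFb1 group was lower by a difference of -1.53 (SE 0.43, limma adjusted p = 0.106), which did not pass over all features. That difference was -1.86 and passed without beta6 null replicate 1 (limma adjusted p = 0.0427, from 0.00657 to 0.668 over the 27 alternatives). Against wild type the TGFb1 group stood 1.36 higher (SE 0.43), which did not pass either (limma adjusted p = 0.757).

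Ccl5 gave -0.79, -0.39, -1.72, -0.49 and -0.36 on the wild type arrays. The beta6 null arrays read 2.03, 1.76, 1.81, 0.52 and 0.69, and those with TGFb1 -0.20, 0.33, 0.07, 0.13 and 0.05. The 3 groups did not overlap: all beta6 null arrays were above all TGFb1 arrays, and these were above all wild type arrays. Means were -0.75 ± 0.57 (SD, n = 5) in wild type mice, 1.36 ± 0.70 in beta6 null and 0.08 ± 0.19 with TGFb1. Ccl5 rose by 2.11 in beta6 null (SE 0.35, limma adjusted p = 0.00785). With TGFb1 the difference to beta6 null was -1.29 (SE 0.35, adjusted p = 0.104) and that to wild type 0.82 (SE 0.35, adjusted p = 0.787), and neither passed in limma.

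Both calls ended with the Xist level as a covariate, where Ccl9 was at 2.50 (adjusted p = 0.404) and Ccl5 at 1.74 (adjusted p = 0.548). Xist, the noncoding RNA that silences an X chromosome, averaged -3.10 ± 0.71 (SD, n = 5) in wild type mice, -0.40 ± 1.48 in beta6 null and -3.07 ± 0.49 with TGFb1, so it moved with the same groups. Its part in a difference therefore cannot be told apart from that of the group. Whether the groups differed in the sex of the mice was not tested. Also lost were the call of Ccl9 with the arrays scaled to equal spread (2.38, adjusted p = 0.0682) and that of Ccl5 with only its pair of groups in the fit (2.11, adjusted p = 0.0868). Over all 27 alternatives each stayed past the threshold in 25, with adjusted p from 8.78e-05 to 0.404 for Ccl9 and from 0.00263 to 0.548 for Ccl5.

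Markers of other cells moved in part with these ligands. In beta6 null against wild type limma called 0.362% of all features higher and 0.588% lower. At an unadjusted p under 0.05 these shares were 4.28% and 7.2%. Of the tested markers of T and NK cells, a source of Ccl5, 0 of 18 passed in limma (3 higher and 1 lower at an unadjusted p under 0.05), and the mean of those read on every array ran from -0.30 to 0.52 in wild type mice, from -0.43 to 0.15 in beta6 null and from -0.27 to -0.05 with TGFb1. Among 25 monocyte, dendritic cell and recruited macrophage markers H2-Aa rose (1.82, limma adjusted p = 0.0409) and Ly75 fell (-2.72, adjusted p = 0.00117) in beta6 null. At an unadjusted p under 0.05 limma had 8 of the 25 higher and 1 lower there. With TGFb1 against beta6 null 0 rose and 1 fell, Itgae (-3.89, limma adjusted p = 0.0332). Where 11.1% of all features were higher and 3.85% lower at an unadjusted p under 0.05, limma had 2 of these markers higher and 5 lower. The mean of the 10 read on every array was -0.72 to 0.04 in wild type mice, -0.14 to 0.24 in beta6 null and -0.27 to 0.57 with TGFb1. Of 25 alveolar macrophage markers 2 rose in beta6 null (Ctsk and Fabp5) and 6 fell (Flt1, Fabp1, Olr1, Il18, Krt19 and Cidec). At an unadjusted p under 0.05 limma had 3 of the 25 higher and 13 lower there. With TGFb1 against beta6 null 5 rose (Pparg, Krt19, Il18, Fabp1 and Olr1) and 1 fell (Fabp5), where limma called 0.58% of all features higher and 0.128% lower. In that comparison 17 were higher and 2 lower at an unadjusted p under 0.05. The mean of the 22 alveolar macrophage markers read on every array was -1.0 to -0.15 in wild type mice, -1.52 to -1.28 in beta6 null and -0.78 to -0.18 with TGFb1, and its part in the ligand values was not tested. Of 12 B and plasma cell markers Blnk rose (2.87, limma adjusted p = 0.0408) and Prdm1 fell (-3.28, adjusted p = 0.0076) in beta6 null. At an unadjusted p under 0.05, 3 of the 12 were higher and 2 lower. The mean of the 6 read on every array was -0.05 to 0.44 in wild type mice, 0.54 to 1.42 in beta6 null and -0.69 to 0.53 with TGFb1. Every beta6 null array thus lay above all others, but only by 0.54 against 0.53 where they came closest. The part of these cells in the ligand values was not tested.

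**Figure D2:**
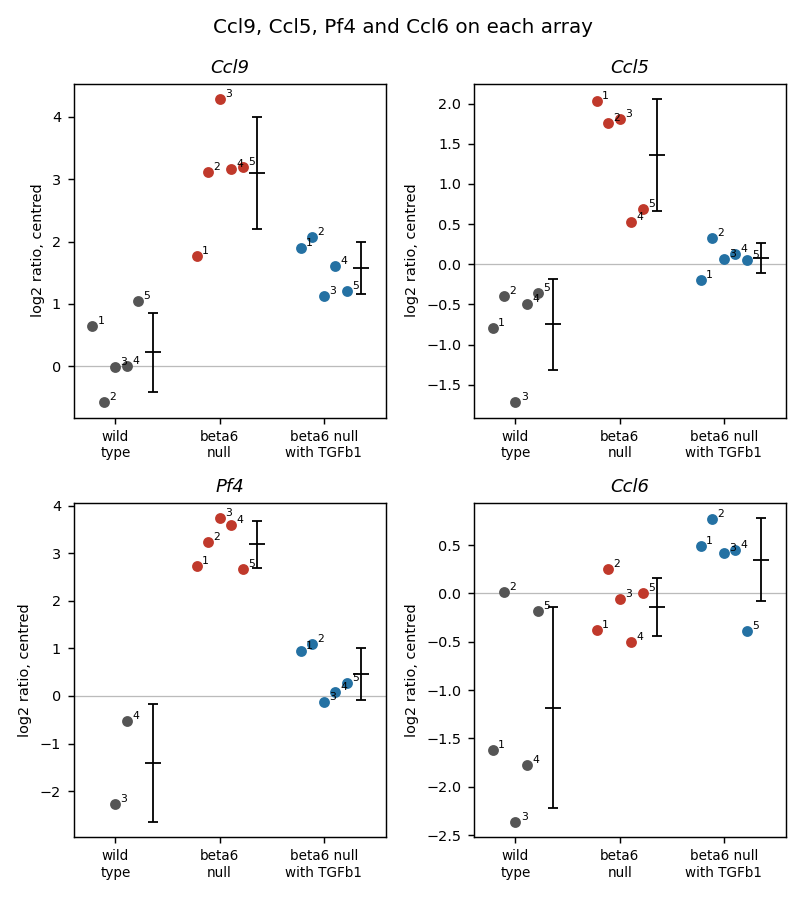
Log2 ratio to the reference (array median at 0) of Ccl9, Ccl5, Pf4 and Ccl6 on each array, with points numbered by replicate and bars for the mean ± SD of each group. Ccl5 forms 3 separate levels, Pf4 has 2 wild type values below all others, and Ccl6 is lowest on wild type replicates 1, 3 and 4.

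Ccl6, a ligand of CCR1 made by macrophages, followed another order. Its log2 ratio was -1.62, 0.02, -2.36, -1.77 and -0.18 in wild type mice, -0.38, 0.25, -0.06, -0.50 and 0.00 in beta6 null, and 0.49, 0.77, 0.42, 0.45 and -0.39 with TGFb1. Wild type replicates 1, 3 and 4 were below all other arrays, but replicates 2 and 5 lay among those of beta6 null. The difference between beta6 null and wild type was 1.04 (SE 0.43, limma adjusted p = 0.347). The TGFb1 group was not below beta6 null here: it stood 0.49 above it (SE 0.43, adjusted p = 0.634) and 1.53 above wild type (SE 0.43, adjusted p = 0.721), neither past the threshold in limma.

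Ccl3 and Ccl4 (MIP-1alpha and MIP-1beta), early products of activated macrophages, did not separate the groups. Ccl4 read 2.52, -4.92, 1.64, 2.51 and 1.94 in wild type mice, 2.79, 3.23, 3.18, 2.12 and 1.89 in beta6 null, and 1.59, 1.72, 2.36, 2.03 and 0.40 with TGFb1. The difference of 1.90 between beta6 null and wild type (SE 1.11, limma adjusted p = 0.524) rested on wild type replicate 2, without which it was 0.49. Without that array the TGFb1 group differed from beta6 null by -1.02 (SE 0.39, adjusted p = 0.176). Ccl3 averaged 4.16 ± 1.52 (SD, n = 5) in wild type mice, 4.35 ± 0.93 in beta6 null and 3.56 ± 1.85 with TGFb1, and its groups overlapped.

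Pf4 (platelet factor 4, also called CXCL4), stored in platelet granules and also made by macrophages, was picked out once its values were known. It had a value on 2 wild type arrays, so it is not among the tested ligands. Those were -2.27 (replicate 3) and -0.52 (replicate 4), against 2.73, 3.24, 3.74, 3.59 and 2.67 in beta6 null and 0.95, 1.09, -0.12, 0.08 and 0.28 with TGFb1. No group overlapped another. In a fit with a filter of 1 value per group, the beta6 null level of Pf4 was 24.1-fold that of those 2 wild type arrays (4.59, SE 0.55, limma adjusted p = 0.002). With TGFb1 it fell by 2.74 from beta6 null, 6.67-fold (SE 0.41, adjusted p = 0.018 in that fit), and by the same difference with only those groups in the fit (SE 0.34, limma adjusted p = 0.00976). Against the 2 wild type arrays the TGFb1 group stood 1.85 higher (SE 0.55, limma adjusted p = 0.789). Pf4 entered these fits only with the filter loosened or wild type left out, and it was picked by its values. Its adjusted p-values therefore describe the fits and are no independent support. Of 17 tested platelet and megakaryocyte markers 0 passed in limma in either comparison, with 3 higher and 1 lower at an unadjusted p under 0.05 in beta6 null against wild type, and 2 in each direction with TGFb1 against beta6 null. Of all features 4.28% were higher and 7.2% lower at that unadjusted p in the first comparison, and 11.1% and 3.85% in the second. The mean of the markers read on every array was -2.80 to -0.09 in wild type mice, -0.69 to -0.28 in beta6 null and -0.47 to -0.15 with TGFb1. Ppbp, the other platelet chemokine, averaged -0.59 ± 1.81 (SD, n = 5) in wild type mice, -0.18 ± 1.13 in beta6 null and -0.26 ± 0.41 with TGFb1.

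Ligands of CCR2, the receptor that brings monocytes out of the blood, were not called. Ccl2 (MCP-1) gave 4.94, 4.95, 3.67, 4.93 and 3.79 in wild type mice, 6.73, 5.11, 7.04, 5.43 and 4.06 in beta6 null, and 3.89, 3.77, 5.11, 4.71 and 0.42 with TGFb1. Beta6 null replicates 1, 2, 3 and 4 were above all wild type arrays, and replicate 5 was not. The difference was 1.22 (SE 0.78, limma adjusted p = 0.562). With TGFb1 the value of Ccl2 differed from beta6 null by -2.09 (SE 0.78, adjusted p = 0.218), or -1.30 without TGFb1 replicate 5 (adjusted p = 0.304). Ccl7 (MCP-3) ran from -0.95 to 6.94 within beta6 null alone, and Ccl12 (MCP-5) averaged 0.02 ± 0.24 (SD, n = 5), 0.40 ± 0.68 and 0.56 ± 0.17 in wild type mice, beta6 null and with TGFb1.

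Among the ligands of CXCR2, which draw neutrophils, Cxcl1 (KC) read 4.79, 2.84, 4.07, 4.27 and 4.39 in wild type mice, 2.92, 5.15, 5.17, 5.25 and 5.09 in beta6 null, and 3.13, 2.37, 3.46, 3.75 and -1.17 with TGFb1. Beta6 null replicates 2 to 5 lay above every other array, and replicate 1 among the low ones. With TGFb1 Cxcl1 differed from beta6 null by -2.41 (SE 0.80, limma adjusted p = 0.169), or -1.54 without TGFb1 replicate 5 (adjusted p = 0.184). Cxcl2 (MIP-2) was not higher in beta6 null: it averaged 6.79 ± 1.74 (SD, n = 5) in wild type mice, 5.88 ± 0.76 in beta6 null and 4.53 ± 2.08 with TGFb1. Its difference with TGFb1 moved from -1.35 to -0.50 without TGFb1 replicate 5. Cxcl5 differed by -0.68 between beta6 null and wild type (SE 0.41, limma adjusted p = 0.54), or -0.34 without beta6 null replicate 2. Cxcl15 (lungkine), placed with them here without a check of its receptor, differed by -0.20 (SE 0.57, limma adjusted p = 0.919). Of 9 tested neutrophil markers S100a8 rose in beta6 null (2.13, limma adjusted p = 0.00148) and 0 fell, beside 0.362% and 0.588% of all features. Where 4.28% of all features were higher and 7.2% lower at an unadjusted p under 0.05, limma had 3 of these markers higher and 0 lower. The mean of the 4 markers read on every array was -0.89 to -0.11 in wild type mice, -0.30 to 0.73 in beta6 null and -0.95 to 0.29 with TGFb1.

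**Figure D3:**
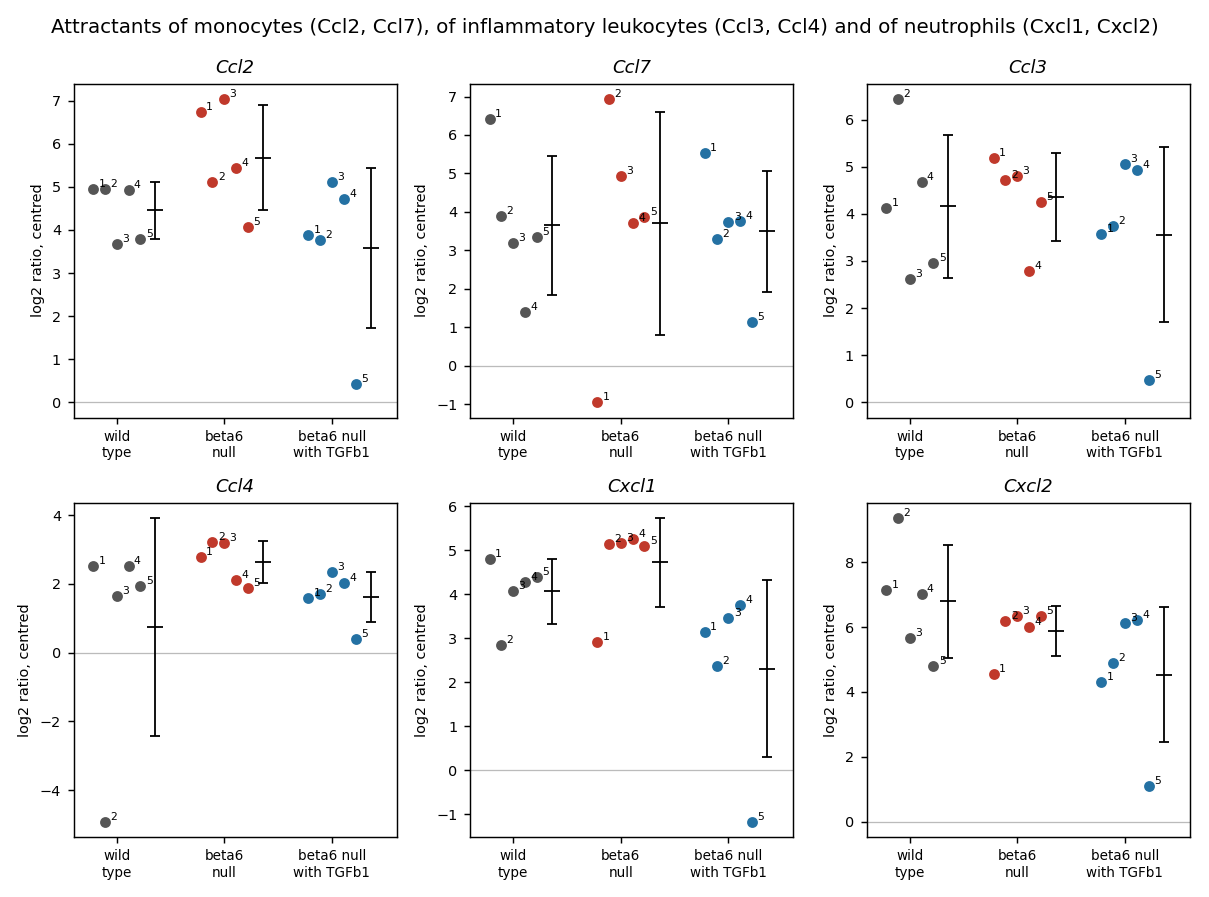
Log2 ratio to the reference (array median at 0) of Ccl2, Ccl7, Ccl3, Ccl4, Cxcl1 and Cxcl2 on each array, with points numbered by replicate and bars for the mean ± SD of each group. TGFb1 replicate 5 is the lowest of its group in all 6 panels, and wild type replicate 2 lies at -4.92 for Ccl4.

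Ligands of CXCR3, which interferon induces and which draw activated T cells, were not called. Cxcl11 read 1.24, -0.10, 1.22, 0.82 and 0.32 in wild type mice, 1.34, 1.49, 0.97, 1.42 and 1.42 in beta6 null, and 1.0, 0.67, 0.36, 1.06 and 1.11 with TGFb1. Beta6 null was higher by 0.63 (SE 0.29, limma adjusted p = 0.434), with overlapping groups. Cxcl9 averaged -0.77 ± 1.20 (SD, n = 3) in wild type mice and 0.44 ± 0.80 (n = 5) in beta6 null, a difference of 1.21 (SE 0.65, limma adjusted p = 0.496). Cxcl10 averaged -0.10 ± 0.67 (n = 4) and -0.19 ± 0.42 (n = 5).

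The other ligands mostly serve homing and steady traffic. Ccl17 and Ccl22, ligands of CCR4 that draw T helper and regulatory T cells, averaged 1.36 ± 0.95 and 1.11 ± 1.16 (SD, n = 5) in wild type mice, 1.78 ± 0.61 and 1.70 ± 0.68 in beta6 null, and 1.05 ± 0.28 and 0.81 ± 0.71 with TGFb1. Ccl19, a ligand of CCR7 that guides dendritic cells to lymph nodes, differed by 1.09 between beta6 null and wild type (SE 0.58, limma adjusted p = 0.485), and by 0.36 without wild type replicate 2. Cxcl12 (SDF-1), the ligand of CXCR4 that holds leukocytes in the marrow, read -0.45, -6.25, -0.10, -0.21 and 0.09 in wild type mice, -0.68, -1.26, -5.19, -1.28 and -1.42 in beta6 null, and 0.16, -0.65, -0.30, -0.09 and 0.14 with TGFb1. The TGFb1 arrays all lay above the beta6 null arrays, but only by -0.65 against -0.68 where they came closest. The difference was 1.82 (SE 1.10, limma adjusted p = 0.465), and 1.01 without beta6 null replicate 3. Against wild type, beta6 null was at -0.58 (SE 1.10), which became -1.80 without wild type replicate 2 and turned to 0.22 without beta6 null replicate 3. Ccl1, Ccl11, Ccl25, Ccl28, Cxcl13, Cxcl14, Xcl1 and Cx3cl1 had differences of -1.73 (Xcl1) to 1.41 (Ccl25) in beta6 null and did not pass at an unadjusted p under 0.05. Xcl1 was at -1.07 without wild type replicate 2, and Ccl25 at 0.81 without that array and at 0.82 without beta6 null replicate 3.

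As a group, 2 of the 28 tested ligands rose in beta6 null against wild type and 0 fell, where 0.949% of all features were called (0.362% higher and 0.588% lower). At an unadjusted p under 0.05 limma had 4 ligands higher and 0 lower, beside 4.28% and 7.2% of all features. The median ligand difference was 0.51 beside -0.05 over all features, with 21 above 0 and 7 below, where 46.9% and 53.1% of all features lay. With the arrays scaled to equal spread this split was 16 to 12 and the median 0.18. On single arrays, the median over the 18 ligands read everywhere was 0.03 to 0.85 in wild type mice, 0.96 to 1.95 in beta6 null and 0.40 to 1.07 with TGFb1. Among the tested ligands, groups did not overlap for Ccl9 and Ccl5, the 2 higher in beta6 null, where 2.06% of all features were higher and 3.06% lower without overlap.

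With TGFb1 against beta6 null, 0 of 28 ligands passed in limma, where 0.708% of all features did. At an unadjusted p under 0.05, 0 were higher and 4 lower (Cxcl1, Ccl2, Ccl9 and Ccl5), beside 11.1% and 3.85% of all features. The median was -0.48 beside 0.12 over all features, with 21 ligands below 0 and 7 above, where 43.3% and 56.7% of all features lay. With the arrays scaled to equal spread the median was -0.18 and the split 19 to 9, and without beta6 null replicate 4 the median was -0.75. This comparison shares its beta6 null arrays with the one before, so a high value there lowers this one. Among the tested ligands, Ccl5 was the 1 whose TGFb1 arrays all lay below beta6 null, and Cxcl12 the 1 whose arrays all lay above. These stand beside 1.91% and 6.35% of all features. For Cxcl12 the groups were apart only by -0.65 against -0.68 where they came closest. Pf4, which was not tested, also lay below beta6 null on every TGFb1 array.

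Between the TGFb1 group and wild type, 0 ligands passed in limma, as did 0 of all 13273 features. At an unadjusted p under 0.05, 3 ligands were higher (Ccl6, Ccl9 and Ccl5) and 2 lower (Cxcl2 and Cxcl1), beside 4.25% and 2.03% of all features (6.28% in either direction). Of the tested ligands, Ccl5, Ccl9 and Ccl12 lay above wild type on every TGFb1 array, as 1.79% of all features did, with Ccl12 apart by less than the second decimal. Of the 28, 14 lay above 0 and 14 below, where 55.4% and 44.6% of all features did, with a median of 0.03 beside 0.07 over all features. Cxcl1 differed by -1.76 (SE 0.80, limma adjusted p = 0.787), or -0.89 without TGFb1 replicate 5, and Cxcl2 by -2.27 (SE 0.94, adjusted p = 0.787), or -1.41 without it.

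**Figure D4:**
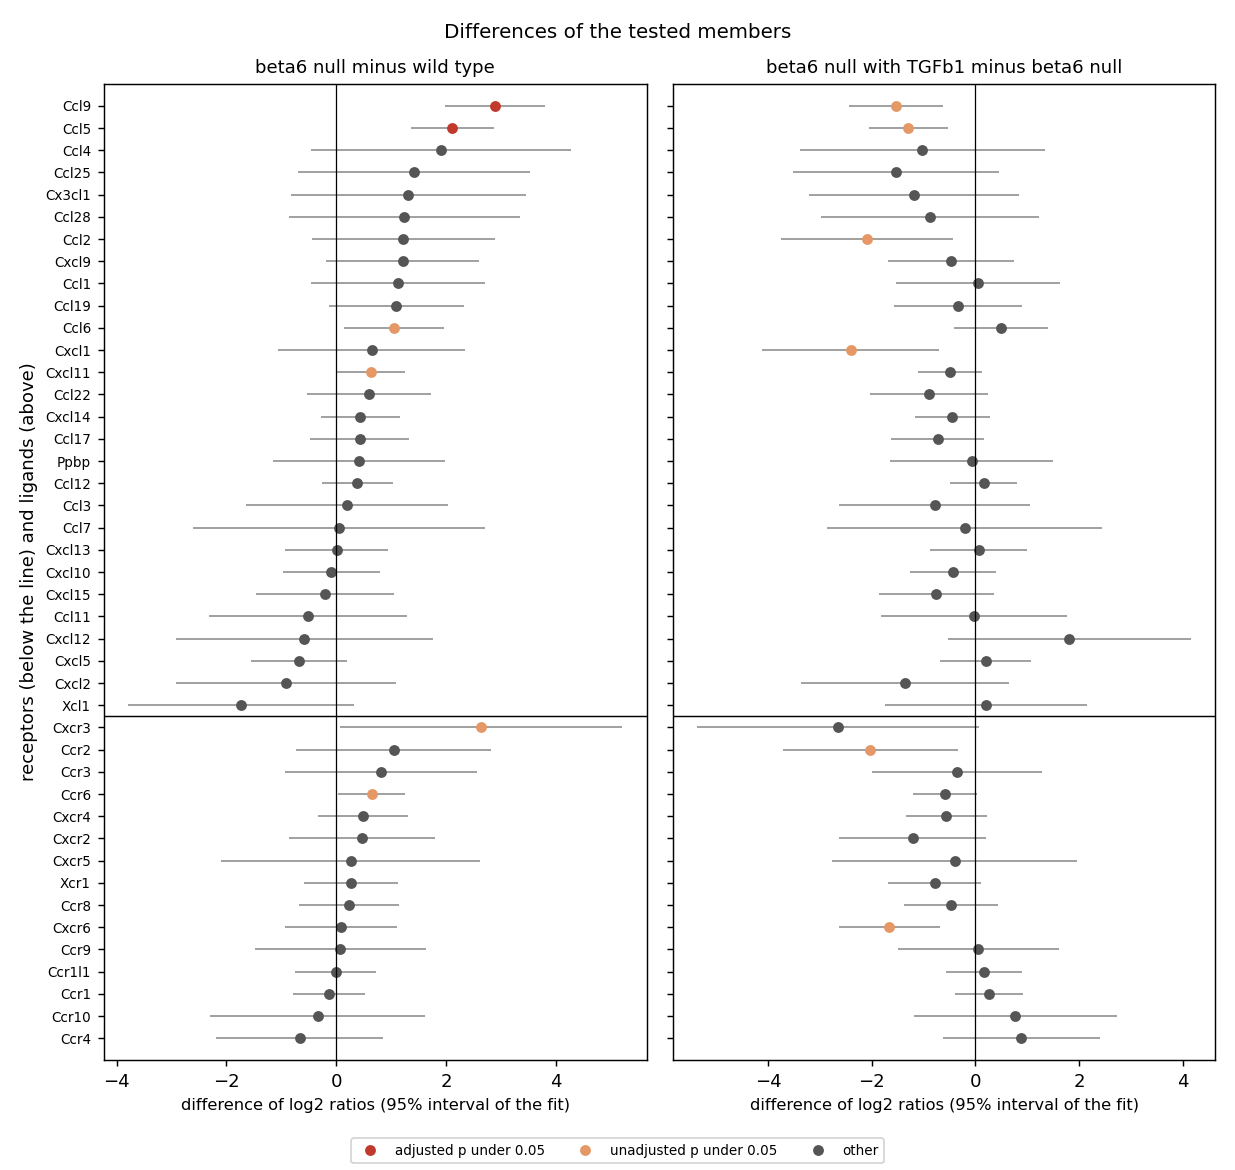
Fitted difference (log2) of each of the 43 tested members with the 95% interval of the fit, for beta6 null minus wild type (left) and beta6 null with TGFb1 minus beta6 null (right). Both panels share the beta6 null arrays. Ccl9 and Ccl5 are the 2 with an adjusted p under 0.05, both at left, and ligands stand above the line and receptors below it.

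Of the receptors none was called. In beta6 null against wild type 0 of 15 passed in limma, 2 were higher (Cxcr3 and Ccr6) and 0 lower at an unadjusted p under 0.05, and the median was 0.26. Over all features 0.949% passed, 4.28% were higher and 7.2% lower at that unadjusted p, and the median was -0.05. Cxcr3, the receptor of activated T and NK cells for Cxcl9, Cxcl10 and Cxcl11, read 0.04, -2.49, 0.51, -3.93 and 0.76 in wild type. It read 3.81, 2.67, 1.04, -0.86 and 1.40 in beta6 null and -4.59, -0.90, 0.47 and 0.90 on the 4 TGFb1 arrays with a value. Beta6 null replicate 4 lay among the wild type arrays, and the other 4 above all of them (difference 2.63, SE 1.20, limma adjusted p = 0.419). With TGFb1 the difference to beta6 null was -2.64 (SE 1.27, limma adjusted p = 0.348), or -1.46 without TGFb1 replicate 2 (adjusted p = 0.616).

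Ccr6, the receptor for Ccl20 on dendritic cells, B cells and T helper cells, read 0.27, -0.54, 0.65, 0.47 and 0.28 in wild type mice, 1.30, 0.54, 1.34, 0.63 and 0.52 in beta6 null, and 0.10, 0.45, -0.10, 0.41 and 0.55 with TGFb1. Its beta6 null arrays overlapped both other groups (0.64 above wild type, SE 0.29, limma adjusted p = 0.405). Ccr2, the monocyte receptor for Ccl2, read 1.25, 0.76, 0.81 and 1.32 on 4 wild type arrays, 1.76, 4.20, 2.86 and -0.52 on 4 beta6 null arrays, and 1.73, -0.61, -0.46, 0.10 and -0.48 with TGFb1. The beta6 null values spread widest and overlapped both other groups. With TGFb1 Ccr2 differed from beta6 null by -2.02 (SE 0.78, limma adjusted p = 0.241), by -1.31 without beta6 null replicate 2, and by -0.82 with array weights.

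Cxcr6, found on resident T and NK T cells, read 0.97, 0.57, 1.12 and 0.63 on 4 wild type arrays and 0.77, 1.12 and 0.83 on 3 beta6 null arrays. With TGFb1 it read -0.56, -1.67, 0.58, -0.95 and -1.16, below every beta6 null array. The difference was -1.66 (SE 0.44, limma adjusted p = 0.109), and the one to wild type -1.57 (SE 0.41, adjusted p = 0.696). Xcr1, a receptor of cross-presenting dendritic cells, was also below beta6 null on all 4 TGFb1 arrays with a value (-0.78, SE 0.41, adjusted p = 0.399), where 3 beta6 null arrays had one. In limma 0 of 15 receptors passed with TGFb1 against beta6 null, with 0 higher and 2 lower (Ccr2 and Cxcr6) at an unadjusted p under 0.05, and against wild type 0 passed, with 0 higher and 1 lower (Cxcr6). The medians were -0.47 and -0.01, beside 0.12 and 0.07 over all features, of which 11.1% were higher and 3.85% lower in the first comparison and 4.25% and 2.03% in the second at that unadjusted p.

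The 6 tested CXC and XC receptors stood above wild type in beta6 null for 6 of 6 (median 0.36, and 5 of 6 with equal spread). With TGFb1 they lay below beta6 null for 6 of 6 (median -0.998). Of all features 46.9% lay above 0 in the first comparison and 43.3% below 0 in the second, and both share the beta6 null arrays. The CX3C receptor Cx3cr1 was read too rarely to be tested, and its means did not follow this order. They were -0.61 over 4 wild type arrays, -0.80 over 2 beta6 null arrays and -0.35 over 4 TGFb1 arrays. For the 9 CC receptors the medians were 0.07 and 0.06, and the first turned to -0.23 with equal spread and to -0.18 under quantile normalization. Ccr1, the receptor for Ccl9, Ccl6 and Ccl5, averaged 0.50 ± 0.44 (SD, n = 5) in wild type mice, 0.36 ± 0.56 in beta6 null and 0.62 ± 0.26 with TGFb1. The interval of its difference in beta6 null was -0.80 to 0.52. Cxcr2, the neutrophil receptor for Cxcl1 and Cxcl2, averaged -0.01 ± 0.89 (SD, n = 4), 0.45 ± 0.05 (n = 3) and -0.76 ± 1.09 (n = 3). Ccr9, the gut homing receptor, averaged 2.22 ± 1.28, 2.29 ± 1.25 and 2.35 ± 1.19 (SD, n = 5) in wild type mice, beta6 null and with TGFb1. Ccr7 was read on 4 wild type arrays (3.17, -3.35, 0.24 and -2.39) and on 1 of each other group.

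**Figure D5:**
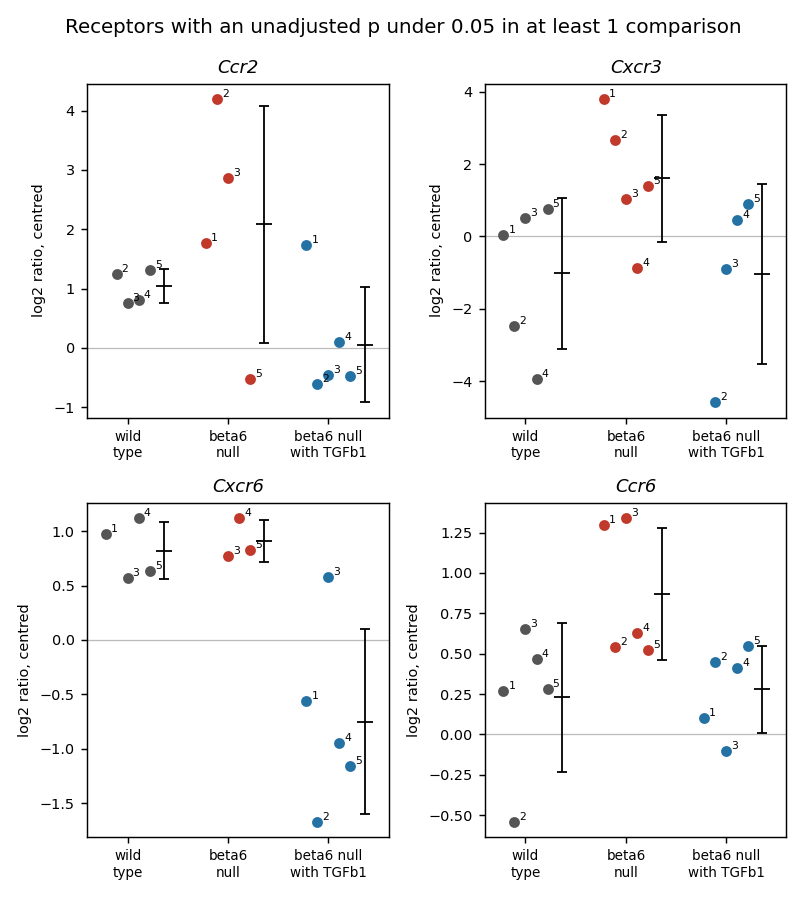
Log2 ratio to the reference (array median at 0) of Ccr2, Cxcr3, Cxcr6 and Ccr6 on each array, with points numbered by replicate, bars for the mean ± SD of each group, and no point where an array had no value. The TGFb1 values of Cxcr6 all lie below the 3 beta6 null values, and the groups overlap in the other panels.

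The genes around the chemokine system were counted from lists of known components. Over all features, limma called 0.949% in beta6 null against wild type. At an unadjusted p under 0.05, 4.28% were higher there and 7.2% lower. Of 6 tested atypical and related receptors, which capture chemokines without signalling through G proteins or bind related attractants, 0 passed in limma in any comparison, and 0 at an unadjusted p under 0.05. Of 42 tested genes that signal below the receptors 1 passed in beta6 null, the Src family kinase Fgr, which fell by 2.11 (SE 0.45, adjusted p = 0.0493). Among 12 tested genes that switch receptors off (arrestins, receptor kinases and RGS proteins) limma called 0 in beta6 null, with 2 higher and 1 lower at an unadjusted p under 0.05. Among 24 inducers of chemokine transcription, NF-kB subunits, interferon factors and cytokines, it called 0, with 1 higher and 3 lower. With TGFb1 against beta6 null 0 of the 42, 12 and 24 passed, with 4 higher and 2 lower, 0 higher and 1 lower, and 1 higher and 1 lower at an unadjusted p under 0.05. Of all features 0.708% passed in that comparison, and 11.1% were higher and 3.85% lower at that unadjusted p.

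Of 15 tested proteases and binders that trim or hold chemokines 2 rose in beta6 null and the same 2 fell with TGFb1. Of all features 0.362% were called higher in the first comparison and 0.128% lower in the second. Dpp4 (CD26), a peptidase that trims the amino end of several chemokines, read -2.0, 0.24, 1.14 and 0.05 on 4 wild type arrays, 3.95, 3.23, 3.53 and 2.96 on 4 beta6 null arrays, and 0.80, 0.27, -1.16, -0.39 and 1.34 with TGFb1. All beta6 null values were above all others. It rose by 3.56 in beta6 null (SE 0.65, limma adjusted p = 0.0218) and fell by 3.25 with TGFb1 (SE 0.62, adjusted p = 0.0337). The other was Mmp12, macrophage elastase, a protease that can also cut chemokines (differences of 4.31 and -2.31, adjusted p = 0.000183 and 0.02).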

How the data were processed

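RNA of alveolar macrophages was measured on 15 two-colour oligonucleotide arrays, 5 in each of 3 groups taken from the labels. Deposited was a log ratio for each probe, taken as log2. How the authors made these log2 ratios (scanner, background, normalization) was not given in the sources used here. Of 17225 probes 30 control spots were left out. Of the 17195 kept, 13972 had 1 symbol in the platform annotation, 13 several and 3210 none listed, and 13869 symbols were looked up in a RefSeq table of the assembly GRCm38.p6.

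Arrays were centred by subtracting the median, and probes of 1 gene were averaged. Features with at least 3 values in every group (13273) were fitted with limma 3.58.1 in R 4.3.3 (lmFit and eBayes, 3 group means, all 15 arrays). The Benjamini-Hochberg adjustment ran over all features of a comparison, with a threshold of 0.05. SEs and 95% intervals come from that fit. The steps were tested on simulated data.

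The members and gene lists were chosen with earlier results of these data known, so that a pattern already known is no independent support. Every member could be named. Values on every array are given for those called or at an unadjusted p under 0.05 in a comparison with beta6 null, and for others picked after their values were seen (Ccl4, Ccr7, Cxcl12 and Pf4). Markers of the cell lists were named where past the threshold in beta6 null against wild type or with TGFb1 against beta6 null. Lists of eosinophils, erythroid cells, epithelium, and fibroblasts with endothelium were counted too. Their calls in beta6 null against wild type were 0 of 10 (limma, 0 higher and 1 lower at an unadjusted p under 0.05), 0 of 5 (1 higher and 0 lower), 1 higher (Sftpc) and 2 lower (Epcam and Krt19) of 22, and 0 higher and 2 lower (Flt1 and Eng) of 11. Of all features 0.949% were called there, and 4.28% were higher and 7.2% lower at that unadjusted p. With TGFb1 against beta6 null, limma called 2 epithelium markers higher (Epcam and Krt19) and 0 lower. Alternatives changed the centring, the scaling, the filter, the averaging of probes, the arrays fitted, their weights, a block for the suffix of the titles and Xist as a covariate. One result is not reported here.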

Additional observations from a re-analysis of the deposited data

Results flagged for a closer look

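Single arrays that stood apart from the other values of their group were looked for in 122 sets of 4 or 5 values of the members, and 16 were found (13.1%), where chance gives about 1 in 20. Of these, 8 were on wild type replicate 2. It was the lowest for Ccl4 (-4.92, next 1.64), Ppbp (-3.80), Ccl1 (-5.09), Ccl19 (-3.24), Cxcl12 (-6.25), Ccr8 (-1.0) and Xcr1 (-0.50), and the highest for Ccl17 (3.01). Wild type replicate 1 was the lowest for Cx3cl1 (-3.87). Beta6 null replicate 1 was the lowest for Cxcl1 (2.92, next 5.09) and Cxcl2 (4.54). Beta6 null replicate 3 was the lowest for Cxcl12 (-5.19) and Ppbp (-2.16) and the highest for Ccl25 (2.70). TGFb1 replicate 5 was the lowest for Ccl2 (0.42, next 3.77) and Cxcl1 (-1.17, next 2.37).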

How the results depend on the processing

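The count of ligands called in beta6 null against wild type (2) was 1 with the arrays scaled to equal spread (Ccl5), 1 with only the pair of groups in the fit (Ccl9) and 0 with Xist as a covariate, and stayed at 2 whichever of the 15 arrays was dropped (3 with Pf4 under a filter of 1 value per group). With TGFb1 against beta6 null, the count of 0 became 1 with a filter of 1 value per group and 1 with only the pair of groups (both Pf4), 2 with array weights (Ccl9 at -1.65, adjusted p = 0.00657, and Cxcl1 at -3.17, adjusted p = 0.033), 1 without the 2 widest arrays (Ccl9) and 0 to 1 when 1 array was left out (Ccl9 without beta6 null replicate 1). The count of receptors there became 1 with array weights (Cxcr6 at -1.84, adjusted p = 0.0193). The receptor median of -0.47 there was 0.11 over the 6 receptors read on all arrays, a smaller set, and -0.71 with Xist as a covariate. The cause of these moves was not tested. Pf4 did not pass the main filter and was picked by its values, so the counts it adds are no support. Of the counts and medians over ligands and receptors, 313 values under the alternatives were labelled the same and 11 moved. Medians near 0 that changed sign are among those labelled the same. For the TGFb1 group against wild type, the ligand median of 0.03 ran from -0.103 to 0.235. The receptor median of -0.01 ran from -0.137 to 0.126. Over all features, the 126 calls in beta6 null ranged from 0 (Xist) to 422 (array weights), with 76 under quantile normalization (40 higher and 36 lower against 48 and 78), 61 with equal spread (30 and 31), 41 with the pair of groups, 64 with the title suffix as a block, and 64 to 154 when 1 array was left out. The 94 with TGFb1 ranged from 0 to 620, with 15 under quantile normalization (8 higher and 7 lower against 77 and 17), 11 with equal spread (8 and 3), 220 over features read on all arrays, 43 with the title suffix, 30 without the 2 arrays numbered apart, 321 without the 2 widest and 23 to 318 when 1 array was left out. No paired analysis was possible because the replicate numbers only name arrays in order and no label ties samples across groups.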

Other observations

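Several members lie in runs of neighbouring genes whose differences in beta6 null against wild type were unequal. In the run of 6 on chromosome 11 (Ccl2, Ccl7, Ccl11, Ccl12, Ccl8 and Ccl1) the 5 tested ranged from -0.51 (Ccl11) to 1.22 (Ccl2). In the run of 6 on chromosome 5 (Cxcl5, Ppbp, Pf4, Cxcl15, Cxcl1 and Cxcl2) those tested ranged from -0.91 (Cxcl2) to 0.65 (Cxcl1). In the receptor run of 7 on chromosome 9 (Ccr9, Cxcr6, Xcr1, Ccr1, Ccr1l1, Ccr3 and Ccr2) they ranged from -0.14 (Ccr1) to 1.04 (Ccr2). None of these passed in limma.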
